A study of Mus musculus with 6 samples.

Results

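Chylomicron assembly and triglyceride resynthesis were followed through 10 genes of the absorptive cell of the small intestine. They were chosen by gene symbol, and the Ensembl identifiers of Apob, Mttp, Apoa1, Apoa4, Apoc2, Apoc3, Sar1b, Dgat1, Dgat2 and Mogat2 were all found among the 55416 genes of the RNA-Seq table. The libraries came from organoids grown from small intestinal crypts (duodenum and jejunum) of 3 WT mice of the C57BL/6 strain. Organoids of each mouse were kept for 5 days with LDL at 50 μg/ml or with PBS, the vehicle, so that each mouse gave 1 LDL-treated and 1 PBS-treated library. All are labelled WT, but the animal identifier of mouse 3 begins with other letters than those of mice 1 and 2, and the genotype was not checked here. Both groups hold the same 3 mice and no other agent separates them, and the ages of the animals are not given in the sources used here. Such organoids hold epithelium alone, dividing crypt cells and their progeny together, with no lymph or blood vessel to receive a secreted particle. A single bulk RNA level was measured per gene, in which fewer cells of a type and less RNA per cell cannot be told apart.

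A chylomicron is the particle by which absorptive enterocytes export dietary fat. Fatty acids and monoacylglycerol are rejoined to triglyceride at the endoplasmic reticulum by the acyltransferases MOGAT2, DGAT1 and DGAT2. The microsomal triglyceride transfer protein MTTP loads that lipid onto apolipoprotein B, the single large protein that scaffolds each particle. Apolipoproteins A1, A4, C2 and C3 sit on the surface of the particle, and the small GTPase SAR1B drives the COPII coat through which the particle leaves the endoplasmic reticulum.

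The libraries held 22061545 to 31073360 reads assigned to genes. The LDL-treated library of mouse 1 stood apart, with reads on 35781 genes against 29285 to 32751 in the other 5 libraries, and with 7.62% of its reads on the ribosomal RNA gene Rn18s-rs5. In the other libraries, the leading gene took 2.60 to 3.32% of the reads.

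Among the 10 genes, Mttp had the highest RNA level per length and Apoc2 the lowest. The level is given here as normalized count per kilobase of the GENCODE canonical transcript, averaged over 6 libraries. It was 3191 for Mttp, 2091 for Apoa1, 1425 for Apob, 1218 for Apoa4, 1080 for Dgat1 and 820 for Sar1b. The remaining genes lay lower, at 280 for Mogat2, 249 for Dgat2, 43.1 for Apoc3 and 2.91 for Apoc2. Neighbors in this order from Mttp to Sar1b overlapped in range between libraries, as did Mogat2 and Dgat2. The ranges did not overlap between Sar1b and Mogat2, between Dgat2 and Apoc3, or between Apoc3 and Apoc2. Counted per kilobase of all annotated exons instead, Apoa1 came before Mttp and Mogat2 before Sar1b, and the other positions were the same. The level of Apoc3 rests on a canonical transcript of 2434 bases, long for the small protein it encodes.

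The 10 genes together took 0.166, 0.224 and 0.197% of the reads in the LDL-treated libraries of mice 1, 2 and 3. In the PBS-treated libraries they took 0.114, 0.153 and 0.111%. Apob and Mttp alone accounted for 72.3 to 83.5% of these reads in each library. The share was higher with LDL in all 3 mice and the groups did not overlap.

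LDL and PBS were compared with limma on log2(normalized count + 1), fitted over the 18459 genes that averaged 10 normalized counts or more, and a gene was called at a Benjamini-Hochberg adjusted p under 0.05 with a change over 1.5-fold. All but Apoc2 of the 10 genes passed that filter, and it used the mean of all 6 libraries. Without a term for the mouse, 0 of the 9 were called in either direction, beside 0.878% of all tested genes called higher and 0.395% called lower. At an unadjusted p under 0.05, 4 of the 9 passed, as did 3634 of all 18459 genes. With the mouse as a block, which the shared animal identifiers allow, Apob, Mttp, Apoa4 and Dgat2 were called higher and none of the 9 lower, beside 5.68 and 3.46% of all genes. DESeq2 on the recovered reads without the block called Apob, Mttp and Dgat2 higher, beside 4.58% of all genes. It called none lower, beside 348 of all 18459 genes. The quasi-likelihood test of edgeR without the block called 0 of the 9, beside 186 of all genes called higher and 70 lower. Without the block, limma called Apob and Dgat2 higher when the LDL-treated library of mouse 2 was dropped, beside 1179 of all 18459 genes. It called Apob, Mttp, Apoa4 and Dgat2 higher when both libraries of that mouse were dropped, beside 1012 of all genes. In these fits none of the 9 was called lower, beside 1133 and 735 of all genes.

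Direction and overlap were also counted without a model. The groups did not overlap, with LDL higher, for 3 of the 9 genes (Apob, Mttp and Dgat2) against 11.9% of all genes, and with LDL lower for none of them against 12.3%. LDL was higher in each of the 3 mice for 5 of the 9 (also Apoa4 and Mogat2), beside 24.2% of all genes. It was lower in each mouse for Apoc3 alone, beside 26.8%. The median log2 change of the 9 genes was 0.33, and that of all genes tested was -0.02.

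**Figure D1:**
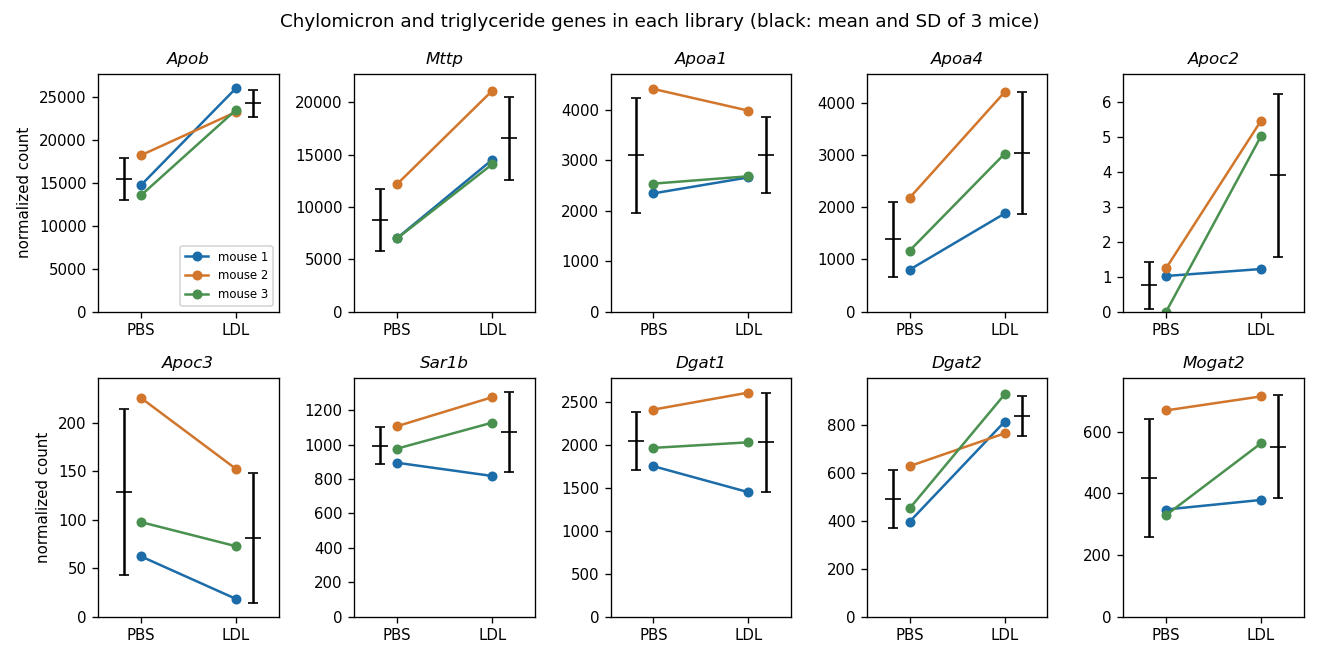
Normalized count (vertical axis, from 0, a separate scale per gene) of each of the 10 genes in PBS- and LDL-treated organoids. Lines join the libraries of 1 mouse and black marks give the mean and SD of 3 mice. The LDL end of the line is the higher one in every mouse for Apob, Mttp, Apoa4, Dgat2 and Mogat2, and the lower one in every mouse for Apoc3.

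Apob encodes the protein around which each chylomicron is built and lies on chromosome 12 of GRCm39, from 8027648 to 8066835 on the plus strand. Its normalized counts with LDL were 25991, 23228 and 23465 in mice 1, 2 and 3, against 14707, 18197 and 13529 with PBS. Every LDL-treated library was above every PBS-treated one, and the increase was smallest in mouse 2, whose PBS-treated organoids held the most Apob RNA. The LDL level was 1.77, 1.28 and 1.73 times the PBS level in the 3 mice. The log2 change was 0.66 ± 0.14 (SE), with a limma adjusted p of 0.0641 without the block and 0.00983 with it. The call with the block was lost without mouse 1 (log2 change 0.57, limma adjusted p = 0.0576) or without mouse 3 (log2 change 0.59, limma adjusted p = 0.177).

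Mttp encodes the lipid-loading subunit of the transfer protein and lies on chromosome 3 from 137795612 to 137850729, on the minus strand. The LDL-treated libraries held 14509, 21101 and 14079 normalized counts and the PBS-treated ones 7038, 12195 and 7006. The groups did not overlap, and mice 1 and 3 had almost the same levels in both treatments while mouse 2 was higher in both. Within a mouse, the count with LDL was 2.06, 1.73 and 2.01 times that with PBS. The log2 change was 0.95 ± 0.25 (SE), and the limma adjusted p of 0.103 without the block became 0.00075 with it. The call with the block held when any 1 of the mice was left out. P4hb, the protein disulfide isomerase that forms the other subunit of the transfer protein, had 19506, 25007 and 20407 counts with LDL and 17247, 22843 and 18852 with PBS. Its log2 change of 0.14 ± 0.15 (SE) did not pass (limma adjusted p = 0.664, or 0.349 with the block).

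Apoa1, Apoc3 and Apoa4 lie beside each other on chromosome 9, and the 3 genes gave different values with LDL. Apoa1 and Apoc3 point toward each other with 314 bases between them, and 5059 bases separate Apoc3 from Apoa4. Apoa5 follows 25173 bases further on. It had normalized counts of 0 to 3.66 and fell under the filter.

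**Figure D2:**
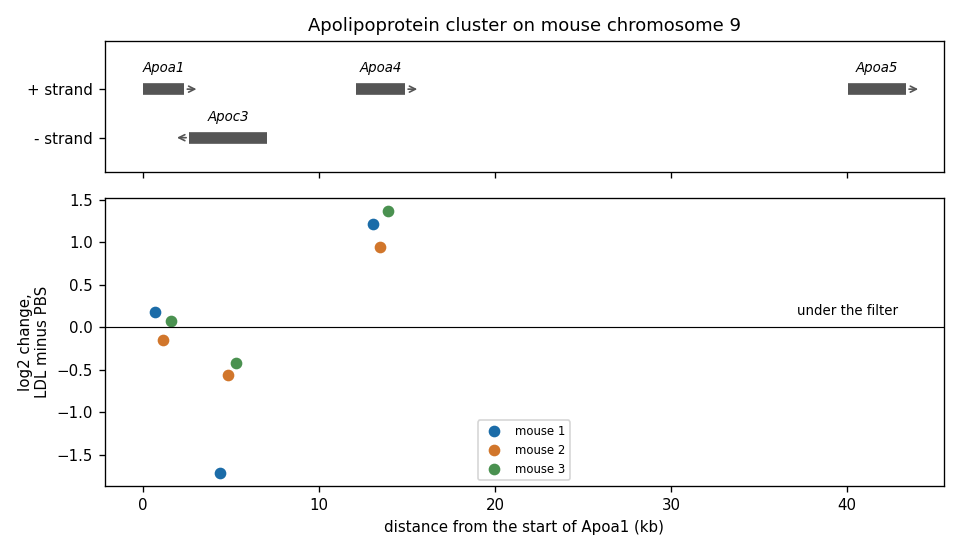
Top, the 4 apolipoprotein genes of the chromosome 9 cluster, with distance from the start of Apoa1 in kb on the horizontal axis and arrows for the direction of transcription. Bottom, the log2 change from PBS to LDL (log2 of normalized count + 1) of each mouse over its gene. Points of Apoa1 lie on both sides of 0, those of Apoc3 all below it and those of Apoa4 all above it.

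Apoa4 encodes apolipoprotein A4, a surface protein that the intestine makes in quantity during fat absorption, and spans positions 46151994 to 46154757 on the plus strand. It had 1880, 4203 and 3024 normalized counts with LDL in mice 1, 2 and 3, and 806, 2182 and 1171 with PBS. The PBS-treated library of mouse 2 was above the LDL-treated library of mouse 1, so the groups overlapped, although the count rose in each mouse. The rise was 2.33-, 1.93- and 2.58-fold, the greatest mean log2 change among the 9 tested genes. At 1.18 ± 0.39 (SE), it had a limma adjusted p of 0.156 without the block and 0.000376 with it. That call with the block held without any 1 of the mice. Opposite-strand genes overlap Apoa4, of which Gm47528 shares 634 bases and had at most 21.8 normalized counts in any library.

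Apoa1, the chief protein of high-density lipoprotein and also a chylomicron surface protein, lies from 46139878 to 46142212 on the plus strand. Its counts were 2659, 3980 and 2681 with LDL and 2343, 4409 and 2535 with PBS. The groups overlapped throughout and mouse 2 was the highest in both. The log2 change was 0.04, with a 95% interval of -0.56 to 0.64 and an adjusted p of 0.958 (limma). With the block the interval was -0.16 to 0.24, which does not reach a 1.5-fold change in either direction.

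Apoc3 encodes an inhibitor of lipoprotein lipase and lies from 46142527 to 46146934 on the minus strand. The LDL-treated organoids gave 18.3, 153 and 72.7 normalized counts and the PBS-treated ones 62.3, 226 and 97.7. The groups overlapped and LDL was the lower value within every mouse, at 0.294, 0.676 and 0.745 times PBS. The log2 change of -0.90 ± 0.75 (SE) had a limma adjusted p of 0.568, and 0.0568 with the block, so Apoc3 was called in neither fit. The value from mouse 1 with LDL rests on 15 reads in the library that stood apart, and without this library the log2 change was -0.08. Leaving out mouse 2 in the fit with the block instead gave a call, at -1.07.

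Apoc2 encodes the activator of lipoprotein lipase and lies on chromosome 7 from 19405504 to 19411877, minus strand. It was covered by 1, 6 and 6 reads in the LDL-treated libraries and by 1, 1 and 0 in the PBS-treated libraries. These numbers are too small to compare, since a count of 0 allows up to 3 reads. The annotated gene Apoc2l, on the same strand, shares 646 of the 799 bases of the canonical Apoc2 transcript and was listed at 0 in all 6 libraries. A counter that skips reads lying in more than 1 gene would leave out those bases, and the setting used is not given in the sources used here.

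The sequence upstream of the cluster genes and of Apob is shown because neighboring genes of the cluster gave different values with LDL. For each gene, the 250 bases before the start of the GENCODE canonical transcript were read from GRCm39 and searched on both strands for CAAAGNNCA, the core letters of an HNF4 site (a nuclear receptor of enterocytes and hepatocytes), for TATAAA and for the cyclic AMP response core TGACGT. CAAAGNNCA was found in 3 of the 10 windows (Apoa4, Apob and Apoc3), beside 5.4% of 21627 windows of protein-coding genes. TATAAA was found in Apob and Apoc3, beside 11.9%, and TGACGT in Dgat1 alone, beside 6.49%. Matches are in capitals in the sequences below, each written 5′ to 3′ on the strand of its gene. The Apoa4 window (chr9:46151744-46151993, plus strand) holds CAAAGNNCA from 184 to 176 and again from 34 to 26 bases before the start. The Apoa1 window (chr9:46139628-46139877, plus strand) holds none of the searched letters, and sites that vary from them were not searched for. The Apob window (chr12:8027398-8027647, plus strand) holds the reverse complement of CAAAGNNCA 74 to 66 bases before the start and TATAAA 31 to 26 bases before it. For Apoc3, only 30 bases around its match are given (chr9:46146661-46146690, minus strand), because 195 bases of its window lie in exons of other transcripts. No match overlapped another. A match is a description of letters and was not measured as binding.
Apoa4: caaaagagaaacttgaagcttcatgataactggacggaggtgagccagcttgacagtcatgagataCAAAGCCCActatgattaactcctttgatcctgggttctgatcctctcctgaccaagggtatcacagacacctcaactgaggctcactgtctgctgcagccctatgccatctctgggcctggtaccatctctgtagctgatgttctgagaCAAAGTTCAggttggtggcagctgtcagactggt
Apoa1: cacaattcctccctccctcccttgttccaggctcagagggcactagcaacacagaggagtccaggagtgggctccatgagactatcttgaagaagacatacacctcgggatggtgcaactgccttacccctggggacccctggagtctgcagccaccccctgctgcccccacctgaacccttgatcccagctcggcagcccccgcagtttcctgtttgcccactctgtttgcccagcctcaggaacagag
Apob: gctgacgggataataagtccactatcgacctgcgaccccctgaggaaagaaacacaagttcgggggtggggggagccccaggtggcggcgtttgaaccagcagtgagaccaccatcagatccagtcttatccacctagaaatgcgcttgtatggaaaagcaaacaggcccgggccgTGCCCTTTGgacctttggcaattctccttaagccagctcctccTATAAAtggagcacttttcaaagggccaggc
Apoc3: tcagcaggTGACCTTTGcccagctcactgg

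Apoa4 holds CAAAGNNCA on the strand of the gene, and Apob and Apoc3 hold it on the strand opposite the gene. The log2 changes of Apoa4, Apob and Apoc3 were 1.18, 0.66 and -0.90, and that of Apoc3 was called in neither limma fit. Any link of the letters to these changes was not tested. Hnf4a, which encodes 1 HNF4 protein, had mean normalized counts of 18018 with LDL and 20674 with PBS. Its log2 change of -0.20 did not pass (limma adjusted p = 0.334, or 0.187 with the block). Hnf4g, which encodes a related HNF4 protein, had means of 1968 with LDL and 1602 with PBS and was higher with LDL in each mouse. Its log2 change of 0.32 was under the fold threshold (limma adjusted p = 0.552, or 0.0308 with the block).

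Sar1b encodes the GTPase that starts the COPII coat for chylomicron export and lies on chromosome 11 from 51646771 to 51682780, plus strand. Its counts were 818, 1277 and 1129 with LDL and 895, 1108 and 978 with PBS. The groups overlapped, with mouse 1 lower and the other two higher. The log2 change was 0.09 with a 95% interval of -0.30 to 0.49 and an adjusted p of 0.813 (limma). Its close paralog Sar1a had a log2 change of 0.07 (limma adjusted p = 0.752), and the ratio of Sar1b to Sar1a was 0.712, 0.953 and 0.895 with LDL against 0.829, 0.903 and 0.777 with PBS.

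Dgat2, 1 of the 2 enzymes that add the last fatty acid to triglyceride, lies on chromosome 7 from 98802491 to 98831991, minus strand. It had 815, 766 and 929 normalized counts with LDL and 397, 629 and 453 with PBS. The groups did not overlap. Mice 1 and 3 gave 2.05-fold rises each, and mouse 2, with the highest PBS level, gave 1.22-fold. The log2 change was 0.78 ± 0.18 (SE), with a limma adjusted p of 0.0769 without the block and 0.0129 with it. The call with the block was lost without mouse 3 (log2 change 0.66, limma adjusted p = 0.187).

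Dgat1 encodes the other enzyme of that step, unrelated to DGAT2 in sequence, and lies on chromosome 15 from 76385083 to 76396476, minus strand. Its counts of 1450, 2613 and 2033 with LDL overlapped those of 1754, 2414 and 1968 with PBS. The log2 change was -0.04, with a 95% interval of -0.53 to 0.46 and an adjusted p of 0.951 (limma). The sign turned in 6 of the 23 alternatives. With the block the interval was -0.25 to 0.18. Hsf1 on the opposite strand shares 1083 of the 1888 bases of the canonical Dgat1 transcript. The library kit was stranded, but the strand setting used in counting is not given, so reads of these bases cannot be assigned for certain. Hsf1 had 945 to 1147 normalized counts with LDL and 922 to 1097 with PBS.

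Mogat2 encodes the acyltransferase that begins resynthesis from monoacylglycerol. It lies 36299 bases from Dgat2, from 98868291 to 98887830 on the same strand of chromosome 7. The counts were 378, 714 and 562 with LDL and 347, 669 and 329 with PBS, higher with LDL in each mouse but with overlapping groups. In mouse 3 the ratio was 1.71, whereas it was 1.09 in mouse 1 and 1.07 in mouse 2. The log2 change of 0.33 had a 95% interval of -0.40 to 1.06 and an adjusted p of 0.625 (limma), or 0.169 with the block.

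**Figure D3:**
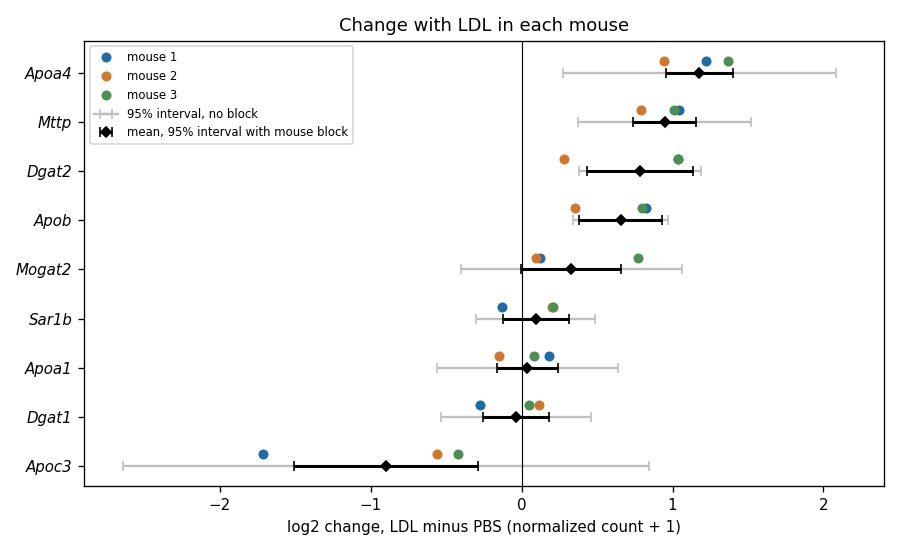
Log2 change from PBS to LDL (horizontal axis, log2 of normalized count + 1) of the 9 tested genes. Colored points are the 3 mice, diamonds the mean, and bars the 95% interval without (gray) and with (black) the mouse as a block. The black bars of Apoa4, Mttp, Dgat2 and Apob lie above 0 those of Mogat2, Apoa1, Sar1b and Dgat1 cross it, and that of Apoc3 lies below it. The intervals are not adjusted for the number of genes.

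Ratios within a library do not depend on the scaling between libraries. An exact permutation test (two-sided, 20 splits of 3 against 3) cannot give a p below 0.1, so none of the 9 ratios compared could reach 0.05. The ratio of Apoa4 to Apoa1 was 0.707, 1.06 and 1.13 with LDL and 0.344, 0.495 and 0.462 with PBS. It was 2.05, 2.13 and 2.44 times as high with LDL in the 3 mice, without overlap of the groups (exact p = 0.1). The ratio of Apoa4 to Apoc3 was 103, 27.5 and 41.6 with LDL and 13.0, 9.65 and 12.0 with PBS, also without overlap (exact p = 0.1), and its highest value comes from the library with 15 Apoc3 reads.

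Among the enzymes, the ratio of Dgat2 to Dgat1 was 0.562, 0.293 and 0.457 with LDL and 0.226, 0.260 and 0.230 with PBS. The groups did not overlap (exact p = 0.1), although mouse 2 moved by only 1.13-fold. The ratio of Dgat2 to Mogat2 was 1.88, 1.14 and 1.20 times as high with LDL in the 3 mice and overlapped between groups (exact p = 0.3). For the transfer protein, the ratio of Mttp to P4hb was 0.744, 0.844 and 0.690 with LDL and 0.408, 0.534 and 0.372 with PBS, without overlap (exact p = 0.1). The ratio of Mttp to Apob was higher with LDL in each mouse, by 1.17-, 1.36- and 1.16-fold, but overlapped between groups (exact p = 0.4). The ratio of Apoa4 to Apob was also higher in each mouse, by 1.32-, 1.51- and 1.49-fold, and that of Apoc3 to Apoa1 lower in each, at 0.259, 0.748 and 0.704 times PBS. Both overlapped between groups (exact p = 0.4 each), as did Sar1b to Sar1a (exact p = 1). The permutation test does not use the pairing by mouse. After Benjamini-Hochberg adjustment over the 9 ratios, the smallest p was 0.225.

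**Figure D4:**
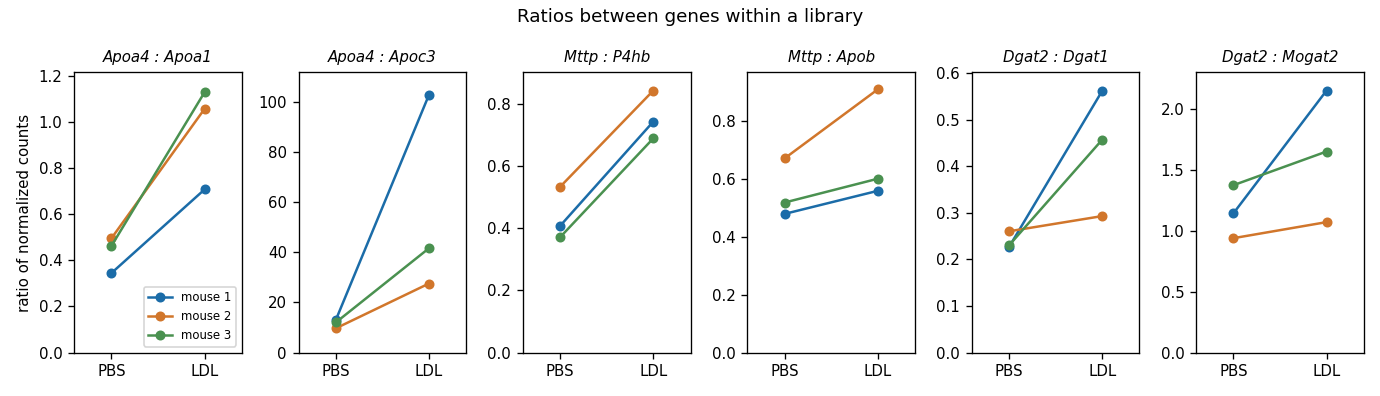
Ratio of normalized counts between 2 genes of the same library (vertical axis, from 0, a separate scale per ratio) in PBS- and LDL-treated organoids, with a line per mouse. The ratios of Apoa4 to Apoa1, Apoa4 to Apoc3, Mttp to P4hb and Dgat2 to Dgat1 separate the groups, and those of Mttp to Apob and Dgat2 to Mogat2 overlap.

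Other genes of the pathway were taken from lists written by gene function. Among apolipoproteins and particle modifiers, 8 of 13 passed the filter and their median log2 change was 0.05. Cidec, a lipid droplet protein, rose, with 181, 163 and 185 normalized counts with LDL against 66.4, 49.7 and 40.7 with PBS (log2 change 1.76 ± 0.21 SE, limma adjusted p = 0.0136). Apobec1, the enzyme that edits Apob RNA to the short intestinal form, had 407, 158 and 316 counts with LDL and 137, 106 and 89.6 with PBS. In limma its log2 change of 1.32 ± 0.34 (SE) was called with the block alone (limma adjusted p = 0.101, or 0.00834 with it). DESeq2 called Apobec1 higher without the block as well (log2 change 1.43, DESeq2 adjusted p = 0.00136). Apoc1, Apoc4, Apoa5, Apoh and Pltp fell under the filter.

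The glycerol phosphate route, which builds triglyceride from glycerol 3-phosphate in place of monoacylglycerol, gave 0 of 12 tested genes called without the block. With the block, the acyltransferase Gpam (log2 change -0.94, limma adjusted p = 0.000862) and the phosphatase Lpin1 (-0.63, 0.00514) fell. Agpat4 rose (0.76, 0.0218). Agpat2 had a log2 change of 0.58 and an adjusted p of 0.0352 in limma without the block, just under the fold threshold. The list's median was 0.03.

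Of the COPII and export genes, all 23 found were tested, and Creb3l3 alone was called in either limma fit. It encodes a membrane-bound transcription factor that leaves the endoplasmic reticulum by that route, and is no part of the coat. It had 1065, 1742 and 1441 counts with LDL and 304, 430 and 310 with PBS (log2 change 2.01 ± 0.21 SE, limma adjusted p = 0.00828). The other 22 had log2 changes between -0.50 and 0.23, and the list's median was 0.04.

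Genes that supply fatty acids to resynthesis had a median log2 change of 0.27 over 18 tested genes, of which 3 rose without the block and 7 with it, and none fell. Fabp1, the liver-type fatty acid binding protein, rose from 4197, 10487 and 5128 counts with PBS to 26670, 69615 and 36032 with LDL (log2 change 2.74 ± 0.42 SE, limma adjusted p = 0.0285). The lipid droplet coat gene Plin2 (1.16, 0.0113) and the monoacylglycerol lipase gene Mgll (3.34, 0.0484) were called as well. With the block, the fatty acid transporters Cd36 (1.95, adjusted p = 0.00333 in limma) and Slc27a4 (0.73, 0.00242) and the intestinal fatty acid binding protein Fabp2 (0.69, 0.00286) were added. Lipe, the hormone-sensitive lipase, was the seventh (0.68, 0.0213).

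Among 25 transcription factors of enterocyte lipid genes the median log2 change was -0.18, with 2 rising without the block. They were Creb3l3, also in the export list, and Isx, an intestinal homeobox repressor, whose counts of 359, 602 and 317 with LDL stood against 5.10, 2.49 and 3.26 with PBS. With the block, 5 rose and 2 fell. The additional rises were Prdm1 (log2 change 1.49, limma adjusted p = 0.0223), the bile acid receptor Nr1h4 (0.80, 0.00607) and Ppard (0.76, 0.00777). Nr5a2 (-0.88, 0.00222) and the oxysterol receptor Nr1h3 (-0.75, 0.00329) fell.

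**Figure D5:**
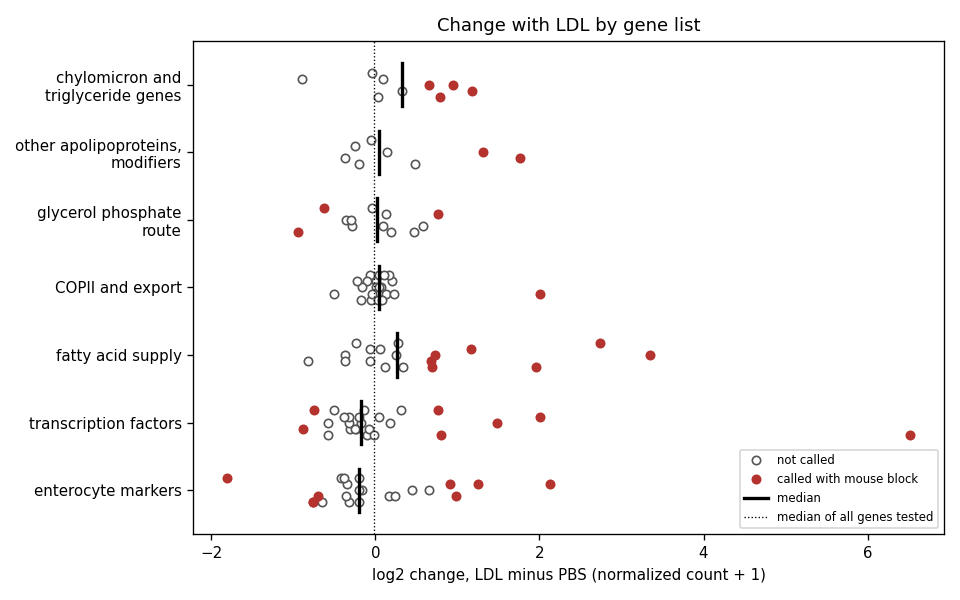
Log2 change from PBS to LDL (horizontal axis, log2 of normalized count + 1) of every tested gene in 7 lists. Filled points were called by limma with the mouse as a block, black bars are the list medians, and the dotted line is the median of all genes tested. Medians run from -0.20 for enterocyte markers to 0.33 for the chylomicron and triglyceride genes.

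These genes are made by absorptive enterocytes, whose markers as a list had a median log2 change below 0. Of 22 markers, all tested, the median was -0.20, with 1 called higher without the block. With the block, 4 were called higher (Alpi at 2.13, Rbp2 at 1.26, Ada at 0.98 and Krt20 at 0.91) and 4 lower, among them Lct at -1.80, Slc15a1 at -0.76 and Dpp4 at -0.70. The summed level of the list was 66102 to 122690 normalized counts with LDL and 74726 to 124990 with PBS. None of the 22 was at 0. Their part in the changes of Apob, Mttp, Apoa4 and Dgat2 was not tested.

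The libraries of mouse 2 led in both the 9 tested genes and the enterocyte markers. With PBS, mouse 2 had the highest count of the 3 mice for 9 of 9 genes and 21 of 22 markers, and for 33.8% of all tested genes. With LDL, it was highest for 7 of the 9, with Apob and Dgat2 as the exceptions, for 18 of 22 markers and for 40.0% of all genes.

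Some markers of other cells were called too, and outside the goblet cell list only with the block. The 9 tested fetal-like markers, genes of immature and regenerating epithelium, were all called higher with the block and 0 without it. Their summed level was 23861, 2233 and 18336 with LDL in mice 1, 2 and 3, against 1165, 171 and 855 with PBS, so mouse 2 was lowest in both treatments. Goblet cell markers had a sum of 30682 to 37123 with LDL and 52936 to 57665 with PBS. Without the block, 1 of 10 was called higher (Clca1) and 3 lower (Spink4, Fcgbp and Agr2). With the block, 1 was called higher and 4 lower. Paneth cell markers summed to 14947 to 17913 with LDL and 19596 to 30539 with PBS, with 2 of 12 called higher and 4 lower with the block. Enteroendocrine markers, with 0 higher and 3 lower of 14 with the block, summed to 8424 to 13397 with LDL and 11079 to 17002 with PBS. Stem cell markers split, with 2 of 10 called higher (Ascl2 and Tnfrsf19) and 2 lower (Olfm4 and Smoc2) with the block, and sums of 44734 to 54215 with LDL against 48750 to 71945 with PBS. Of 8 tuft cell markers, 5 were tested and 1 (Pou2f3) was lower with the block, with sums of 137 to 226 and 204 to 256. The part of these cells in the changes of the chylomicron genes was not tested. Stromal, endothelial and immune markers were near 0. Of 16, 12 had a mean under 10, their sum was 64.6 to 161 with LDL and 88.7 to 138 with PBS, and none was called in either fit. Acta2 and Csf1r led the list, at means of 29.8 and 19.5.

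Genes whose pattern was most like that of Mttp, the highest of the 10 per length, were ranked by the root mean square difference of log2 values centered on each gene's mean, over 6 libraries and 11938 genes with a mean of at least 100. The closest was Gm8798, annotated as a transcribed pseudogene, at a difference of 0.0652. It was followed by the carboxylesterase Ces1f (0.117), the carboxylesterase Ces2c (0.119), Ces2d-ps (0.127) and the sugar transporter Slc5a9 (0.138). Ces2c had 5445, 7840 and 6338 normalized counts with LDL and 2412, 4552 and 2590 with PBS. These differences are on the log2 scale, describe likeness over the same 6 libraries that gave the changes above, and say nothing of shared control.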

How the data were processed

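RNA-Seq of organoids from 3 mice, each cultured for 5 days with LDL at 50 μg/ml or with PBS, was analyzed, in all 6 libraries. Reads were taken through bcl2fastq 2.20, STAR (GRCm39), featureCounts and DESeq2, per the submitters' processing notes. The libraries were made with a stranded kit, and the annotation release and counting strand setting are not given in the sources used here. The deposited file holds a signal that the authors made, normalized counts per gene, and whole reads were recovered from 100% of its values (tolerance of 0.01 reads). The total depth ranged from 22061545 to 31073360 assigned reads, and a count of 0 allows up to 3 reads by counting error only. Symbols and positions came from GENCODE M39, which held 54749 of 55416 identifiers. Sequences came from GRCm39.

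Groups and mice were taken from the labels, and libraries with the same number share an animal identifier. After removal of treatment means, libraries of the same mouse correlated at r = 0.48, 0.42 and 0.46 over genes, which are not independent. The mouse was no term of the first fit because the study's description of its DESeq2 analysis names none. For other organoid measurements the study used a paired t-test, with a point per mouse. The mouse is printed as a block where it changes a call.

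Normalized counts + 1 were taken to log2 values and tested with limma 3.58.1 in R 4.3.3 (eBayes with a trend, two-sided, Benjamini-Hochberg). The text names all 10 genes, those called in the lists (up to 6 per list), genes overlapping or beside a member, and the 5 genes most like Mttp. The genes and lists were chosen with earlier results of these data known. Values of a few genes are not reported here. Alternative fits dropped the filter or raised it to 50, used pseudocounts of 0.5 or 5, quantile normalization or upper-quartile scaling, added the mouse block, dropped libraries or mice, ignored the fold threshold, or replaced limma by edgeR 4.0.16 or DESeq2 1.42.0 on the recovered reads. The fits were tested on simulated data. Python 3.11.15 (numpy 2.4.6, pandas 2.3.3, matplotlib 3.10.9) was used for tables and plots.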

Additional observations from a re-analysis of the deposited data

How the results depend on the processing

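Apob, Mttp, Apoa4, Dgat2, Mogat2 and Apoc3 kept their direction in all 23 alternatives computed for each gene, and were past the threshold in 8, 9, 7, 9, 0 and 1 of them. With the mouse as a block, 1048 genes were called higher and 639 lower, against 162 and 73 without it, and 4 of the 9 tested chylomicron and triglyceride genes were called higher, against 0. With this block and without mouse 1, 2 or 3, 758, 1604 or 265 genes were called higher, with 3, 4 or 2 of the 9 among them. In the same fits 327, 1348 or 77 were called lower, with Apoc3 (1 gene) among them without mouse 2. edgeR with the block called 1171 higher and 588 lower, and 4 of the 9. DESeq2 called 846 and 348 without the block, with 3 of the 9, and 984 and 513 with it, with 4. Without the filter on low values the numbers were 506 and 245, with 3 of the 10 genes then tested, and the median log2 change of all genes moved from -0.02 to 0.10. The cause of these shifts was not tested.

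Without the block, leaving out 1 library or both libraries of a mouse gave 0 to 1179 genes higher, 0 to 1133 lower and 0 to 4 of the 9 higher. The largest counts over all genes came when the LDL library of mouse 2 was dropped, and that of 4 among the 9 when both libraries of mouse 2 were. Limma called no gene when both libraries of mouse 3 were dropped. In the fits that left out samples, the log2 change ranged from -0.15 to 0.32 for Apoa1, from -0.043 to 0.28 for Sar1b and from -0.24 to 0.18 for Dgat1, all of which turned sign. With the block and without mouse 1 it was -0.034 for Apoa1 and 0.080 for Dgat1. For Dgat1 it was 0.0095 with edgeR and 0.0042 with DESeq2. Reads were few for Apoc2 in every library and for Apoc3 in the LDL-treated organoids of mouse 1.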
